A study of Mus musculus with 2 samples.

Results

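Neurotrophins, Gdnf and their receptors were followed in the midbrain of the embryonic day 10.5 mouse: the 4 ligands Bdnf, Ntf3, Ntf5 and Gdnf, and the 4 receptors Ngfr, Ntrk2, Ntrk3 and Ret. They are 8 of the 43346 genes in the deposited tables, taken by symbol with no threshold on a measured value. The study holds 1 group of 2 RNA-seq libraries, both of midbrain from healthy B6NCrl embryos of day 10.5 with males and females pooled. Replicate 1 came from 69 embryos and replicate 2 from 51 embryos, and 10 ng of RNA longer than 200 nt, extracted with the mirVana kit, went into each. The labels name no treatment, transgene or mutation, and call the pools biological replicates. Since there is no second group to compare with, the results are levels, transcript forms and the difference between the 2 libraries. Nothing in the labels says how the embryos were divided between the pools, and the spread between 2 libraries may be partly technical.

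Neurotrophins are secreted dimeric growth factors made as longer precursors and cut by proteases of the furin type. Bdnf and Ntf5 bind the receptor tyrosine kinase TrkB, the product of Ntrk2; Ntf3 binds mainly TrkC, the product of Ntrk3; all of them also bind the low-affinity receptor encoded by Ngfr, which has no kinase. Ntrk2 and Ntrk3 each make forms with and without the kinase, and the forms without it can bind ligand but cannot signal by phosphorylation. Gdnf, a ligand of the GDNF family, binds the anchored co-receptor Gfra1, and the pair engages the kinase Ret. These factors are best known for the survival, growth and target choice of neurons, including dopaminergic, motor and sensory neurons.

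The receptor genes are shown first by sequence, since the results on Ntrk2 and Ntrk3 turn on where their forms part. In the lines that follow, lower case marks the last 24 coding bases that the 2 forms of a gene share, and capitals mark the bases that differ by form. All are reference sequence of GRCm38, the assembly of the files, written 5′ to 3′ on the strand of the gene, with exon borders from GENCODE M21. For Ntrk2, on the plus strand, the capitals of the truncated Ntrk2-202 lie at chr13:58932023-58932060 and end with its stop codon, and those of the full-length Ntrk2-201 lie at chr13:58985802-58985839.
Ntrk2-202: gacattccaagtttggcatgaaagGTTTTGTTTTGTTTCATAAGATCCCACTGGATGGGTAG
Ntrk2-201: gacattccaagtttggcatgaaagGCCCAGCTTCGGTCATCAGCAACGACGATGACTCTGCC
The truncated form adds 12 codons, counting the codon that spans the exon border and leaving out the stop codon, and has 476 codons in all, against 821 in the full-length form. For Ntrk3, on the minus strand, the capitals of the truncated Ntrk3-202 are its first 48 own coding bases, at chr7:78304379-78304426, and those of the full-length Ntrk3-201 lie at chr7:78260367-78260414.
Ntrk3-202: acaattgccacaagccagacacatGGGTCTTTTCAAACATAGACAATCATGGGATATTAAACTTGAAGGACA
Ntrk3-201: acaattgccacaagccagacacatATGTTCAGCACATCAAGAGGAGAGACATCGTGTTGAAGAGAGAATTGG
The truncated Ntrk3-202 has 612 codons, of which 84 are its own, and Ntrk3-201 has 825. Ret, on the minus strand, has 2 listed forms that both keep the kinase and part only near the end of the coding sequence, at chr6:118155256-118155287 in Ret-202, where the capitals end with the stop codon, and at chr6:118153979-118154010 in Ret-201.
Ret-202: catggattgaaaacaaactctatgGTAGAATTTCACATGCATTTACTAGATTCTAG
Ret-201: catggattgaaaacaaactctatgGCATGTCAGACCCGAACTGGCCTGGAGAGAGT
Counted in the same way, Ret-202 has 10 codons after the fork and 1073 in all, and Ret-201 has 52 and 1115.

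Whether a transcript counts as full-length was decided by the catalytic loop, the stretch of a kinase that carries its catalytic aspartate. It is shown for the 3 receptor kinases because its absence defines the truncated forms. Capitals mark the 15 bases of the loop's conserved core, at coding positions 2017 to 2031 of Ntrk2-201, 2029 to 2043 of Ntrk3-201 and 2617 to 2631 of Ret-201.
Ntrk2-201 loop: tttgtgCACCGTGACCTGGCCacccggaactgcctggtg
Ntrk3-201 loop: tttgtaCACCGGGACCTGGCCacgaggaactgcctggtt
Ret-201 loop: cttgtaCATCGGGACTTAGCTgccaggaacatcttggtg
The windows lie at chr13:59060352-59060390 on the plus strand, and at chr7:78247227-78247265 and chr6:118167980-118168018 on the minus strand. Of their 39 bases, 34 are identical between Ntrk2 and Ntrk3, 27 between Ntrk2 and Ret and 28 between Ntrk3 and Ret. The Ntrk2-202 and Ntrk3-202 coding sequences end before this exon, as the map of coding exons shows.

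**Figure D1:**
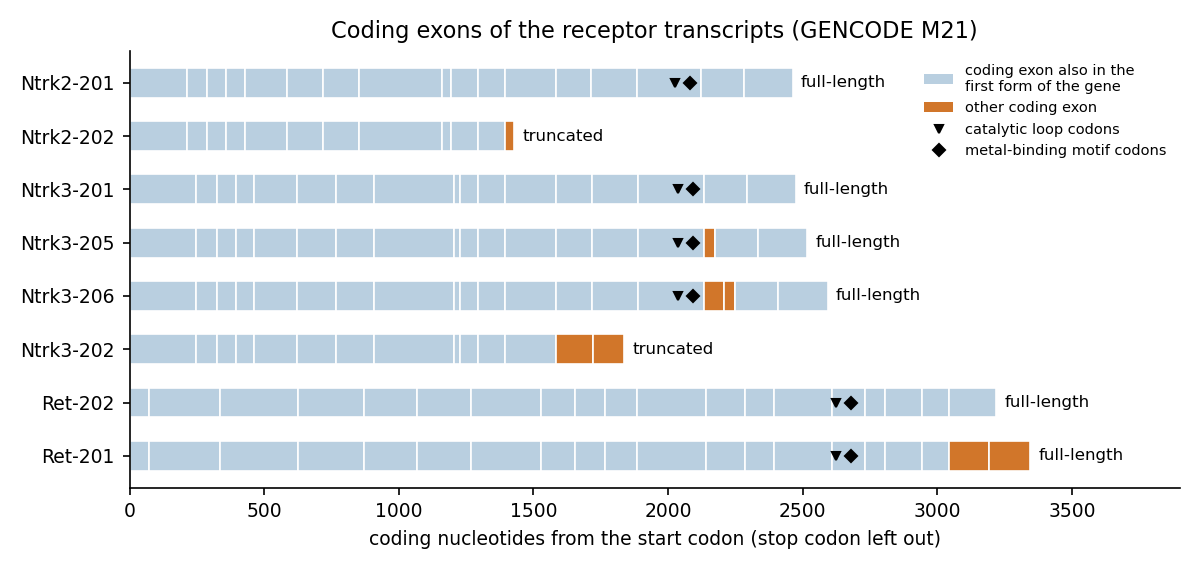
Coding exons of 8 receptor transcripts along the coding sequence, in nucleotides from the start codon, from GENCODE M21. Blue boxes are coding exons also in the first form drawn for that gene, orange boxes are other coding exons, and black symbols mark the catalytic loop and the metal-binding motif after it. Ntrk2-202 and Ntrk3-202 end in orange boxes before the symbols, while the orange boxes of Ntrk3-205, Ntrk3-206 and Ret-201 come after them.

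Total expected counts were 47128426 (replicate 1) and 52189568 (replicate 2), and 12477 of 21474 protein-coding genes (58.1%) reached 1 TPM, a length-corrected share of transcripts, in both libraries, with a median of 20.7 TPM among them. Of 6 marker genes of the labelled tissue, midbrain, 5 were detected at that level. The highest were Otx2 at 138 and 123 TPM, Otx1 at 46.3 and 37.8 TPM and Dmbx1 at 33.3 and 32.7 TPM (replicate 1 and then replicate 2, here and below). The other detected genes of the list were lower. No list of forebrain markers was read, so these values do not set midbrain apart from forebrain. En2, a gene of the midbrain and hindbrain border, was at 0.92 and 0.71 TPM. All 8 progenitor and all 8 neuron markers were detected, as were 7 of 9 markers of neural crest and mesenchyme, 7 of 8 of cranial sensory ganglia, 5 of 5 of endothelium and 2 of 6 of hindbrain. In these bulk samples, more cells expressing a gene and more RNA of it per cell cannot be told apart.

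The members spanned levels from 0.35 to 19.0 TPM, and the receptors Ngfr and Ntrk2 stood at the top of the order in both libraries. By mean, the order ran Ngfr, Ntrk2, Ntf3, Ntrk3, Bdnf, Ret, Gdnf and Ntf5. At the minimum of 1 TPM in both libraries 5 of 8 were detected, and Ret, Gdnf and Ntf5 were not. The credible intervals deposited with the TPM values, whose level the headers do not give, separated most neighbours in this order: they overlapped between Ntrk3 and Bdnf in replicate 2 only, between Bdnf and Ret in replicate 1 only, and between Gdnf and Ntf5 in both libraries. Summed over each role, the 4 receptors came to 31.4 and 23.0 TPM and the 4 ligands to 6.61 and 5.83 TPM. No member's deposited count carried uncertainty from reads shared with other genes.

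**Figure D2:**
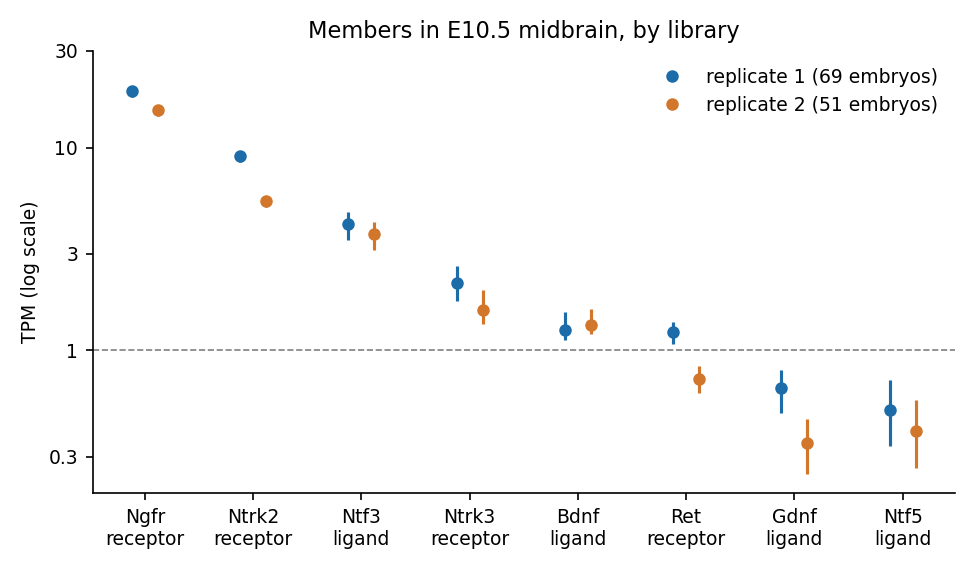
Levels of the 8 members in TPM on a log scale, for replicate 1 (blue) and replicate 2 (orange). Points are the deposited TPM, vertical lines the deposited credible intervals, hidden by the point where narrow, and the dashed line is 1 TPM. Ngfr, at 19.0 and 15.2 TPM, was the highest member in both libraries, and Gdnf and Ntf5 lay under the line in both.

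Of the ligands, Ntf3 was the highest. Ntf3, on chr6:126101412-126166910, minus strand, was at 4.19 TPM in replicate 1 (credible interval 3.50 to 4.81, 156 counts) and at 3.75 TPM in replicate 2 (3.13 to 4.30, 158 counts), a mean of 3.97 ± 0.311 (SD, n = 2). The libraries overlapped in their intervals, and the level lay at percentiles 50.4 and 50.8 of all protein-coding genes. The tables list 2 Ntf3 transcripts, which differ at the 5′ end. Ntf3-201 was at 2.20 and 2.48 TPM, and Ntf3-202 at 1.99 and 1.27 TPM. Their intervals overlapped in both libraries, so neither can be placed above the other.

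Bdnf, on chr2:109674700-109727007, plus strand, is the ligand whose many promoters each splice a first exon to a common coding exon. It was at 1.26 TPM (1.12 to 1.54, 143 counts) and 1.33 TPM (1.20 to 1.61, 173 counts), a mean of 1.29 ± 0.0495 (SD, n = 2), with no separation of the libraries. Ntf3 exceeded Bdnf by a TPM ratio of 3.33 in replicate 1 and 2.82 in replicate 2. Of 11 listed Bdnf transcripts, reads were placed mainly on Bdnf-205, which starts at base 109693563 and has 347 exonic nt of its own. Bdnf-205 was at 1.18 and 1.33 TPM, 94.2% and 100% of the gene by the deposited isoform percent. By the deposited posterior mean, which spreads reads over forms that cannot be told apart, the share of Bdnf-205 was 69.9% and 64.7%. Both estimates leave Bdnf-205 first, and its TPM in both libraries lay above the upper end of its own credible interval (1.16 and 1.17). The next transcripts, Bdnf-209 and Bdnf-201, had 0.04 and 0.03 TPM in replicate 1 and 0 in replicate 2.

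Gdnf, the ligand of the Ret system, lies on chr15:7810846-7837575, plus strand, and has 1 listed transcript. It was at 0.65 TPM (0.491 to 0.801, 65 counts) in replicate 1 and at 0.35 TPM (0.246 to 0.459, 40 counts) in replicate 2, a mean of 0.50 ± 0.212 (SD, n = 2). The intervals of the libraries did not overlap, and both values were under 1 TPM. Ntf5, the lowest ligand by mean and in replicate 1 but not in replicate 2, lies on chr7:45413695-45417179, plus strand, and encodes the other TrkB ligand. It was at 0.51 TPM (0.339 to 0.714, 28 counts) and 0.40 TPM (0.263 to 0.572, 25 counts), a mean of 0.455 ± 0.0778 (SD, n = 2). Ntf3 exceeded Ntf5 by TPM ratios of 8.22 and 9.38. The counts of Gdnf and Ntf5 stood well above the floor of 3 counts, which corresponds to 0.0300 and 0.0262 TPM for Gdnf and to 0.0546 and 0.0480 TPM for Ntf5.

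Of the other ligands of both families, 1 of 5 was detected. Nrtn, which encodes neurturin of the GDNF family, was at 4.76 and 3.45 TPM and so close to Ntf3. Pspn was at 0.64 and 0.79 TPM and Artn at 0.43 and 0.70 TPM. Gdf15, a distant relative that signals through Gfral and Ret, had 0.03 and 0.05 TPM, from 1 and 2 counts.

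Ngfr, on chr11:95568818-95587735, minus strand, was the highest of the members, with 1 listed transcript. It was at 19.0 TPM (17.8 to 19.5, 1866 counts) in replicate 1 and at 15.2 TPM (14.3 to 15.7, 1712 counts) in replicate 2, a mean of 17.1 ± 2.66 (SD, n = 2). Replicate 1 was the higher, beyond both intervals, and the gene lay at percentiles 69.1 and 67.0 of protein-coding genes, near the median of those detected. Its level exceeded that of Ntrk2 by TPM ratios of 2.09 and 2.79. The 3 protein-coding genes nearest to it in level over the 2 libraries were Myo5a at 18.9 and 15.2 TPM, Cnp at 19.1 and 15.1 TPM and Senp7 at 19.0 and 15.0 TPM. With 2 libraries such nearness is of level only.

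Ntrk2, on chr13:58806569-59133970, plus strand, spans 327 kb. It was at 9.07 TPM (8.50 to 9.31, 1893 counts) and 5.45 TPM (5.08 to 5.67, 1288 counts), a mean of 7.26 ± 2.56 (SD, n = 2). The libraries did not overlap, replicate 1 being the higher. Ntrk2 exceeded Ntrk3 by TPM ratios of 4.22 and 3.45, and its ligand Bdnf by 7.20 and 4.10. The genes nearest to it in level were Cux2 at 9.02 and 5.35 TPM, Hcn3 at 8.86 and 5.30 TPM and Dpp6 at 8.65 and 5.53 TPM.

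By the deposited estimates, most Ntrk2 RNA was placed on the truncated form in both libraries. Ntrk2-202, whose own coding end is printed above, was at 7.86 TPM (7.31 to 8.13) in replicate 1 and 5.01 TPM (4.63 to 5.22) in replicate 2. The full-length Ntrk2-201 was at 1.21 TPM (1.01 to 1.39) and 0.45 TPM (0.342 to 0.555). The intervals of the forms lay far apart in each library, and the truncated form exceeded the full-length form by ratios of 6.5 and 11.1. As a share of Ntrk2, the full-length form made up 13.3% in replicate 1 and 8.24% in replicate 2, a mean of 10.8% ± 3.6 (SD, n = 2). By expected counts, 300 of 1893 reads were placed on the full-length form in replicate 1, or 15.8% (exact Clopper-Pearson 95% interval 14.2 to 17.6), and 127 of 1288 in replicate 2, or 9.86% (8.29 to 11.6). These intervals do not overlap. They cover counting error only, and neither the placing of shared reads nor PCR copies is in them. The deposited SD of that placing was 16.8 and 11.3 counts.

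The tables hold 2 Ntrk2 transcripts, while GENCODE M21 has 10, of which 5 are truncated and 2 full-length, and the other forms were not estimated. Each form has a long exonic stretch of its own, 5109 nt in Ntrk2-202 and 7007 nt in Ntrk2-201 by M21, mostly outside the coding sequence. The form shares therefore rest largely on reads from these stretches. The own coding exon of Ntrk2-202 starts at base 58932023, and the transcript ends at base 58937027. In Ntrk2-201 this is intron, between coding exon 11, which ends at 58878262, and coding exon 12, which starts at 58985802. Reads there from unspliced full-length RNA cannot be told apart from the truncated form. Their part in the shares was not tested. GENCODE M21 also has antisense genes over Ntrk2, Ntrk3 and Bdnf, and whether the counting used strand is not given in the sources used here. Antisense Gm9885, over Ntrk3, had 0.61 and 0.25 TPM.

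Ntrk3, on chr7:78175959-78738012, minus strand, spans 562 kb. It was at 2.15 TPM (1.76 to 2.62, 143 counts) and 1.58 TPM (1.35 to 1.98, 131 counts), a mean of 1.87 ± 0.403 (SD, n = 2), with overlapping intervals. Here the kinase forms made up most of the RNA. The 3 full-length transcripts summed to 1.43 and 1.12 TPM, against 0.22 TPM (0.0481 to 0.50) and 0.36 TPM (0.0915 to 0.578) for the truncated Ntrk3-202. Full-length forms were 86.7% and 75.7% of full-length plus truncated TPM, a mean of 81.2% ± 7.77 (SD, n = 2). With the non-coding Ntrk3 transcripts also in the denominator, they were 66.8% and 71.3%. By counts of full-length plus truncated forms the share was 89.2% of 130 (exact Clopper-Pearson 95% interval 82.6 to 94.0) and 79.1% of 129 (71.0 to 85.7), and these intervals overlap. They leave out the placing of shared reads. For Ntrk3-202, with 14 and 27 counts, the deposited SD of that placing was 7.01 and 8.24 counts. The share in Ntrk2, with an upper bound of 17.6% in replicate 1 and 11.6% in replicate 2, lay below these counting intervals of Ntrk3.

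Among the kinase forms of Ntrk3, 2 inserts in the later part of the kinase coding sequence set the coding sequences apart. They are shown because Ntrk3-205 and Ntrk3-206 differ in coding sequence by the longer of them, while Ntrk3-201 also has exonic bases of its own outside the coding sequence. TrkC forms with inserts at this place are known to signal differently from the form without. The first is the exon that Ntrk3-205 has beyond Ntrk3-201, at chr7:78204103-78204144, and the other is the exon that Ntrk3-206 has in addition, at chr7:78229487-78229561, both on the minus strand and printed whole in capitals.
Ntrk3-205 insert: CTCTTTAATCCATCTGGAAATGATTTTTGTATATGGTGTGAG
Ntrk3-206 insert: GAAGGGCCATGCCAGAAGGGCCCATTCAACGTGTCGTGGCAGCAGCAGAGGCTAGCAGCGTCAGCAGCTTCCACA
Ntrk3-205, with the insert of 42 bases, was at 1.01 TPM (0.107 to 1.19) and 0.60 TPM (0.0330 to 1.02). Ntrk3-206, with inserts of 75 and 42 bases, was at 0 TPM in replicate 1 (upper bound 0.689) and at 0.39 TPM in replicate 2 (upper bound 0.878). Ntrk3-201, with no insert, was at 0.42 TPM (0.166 to 0.738) and 0.13 TPM (0.0213 to 0.347). At this depth the intervals of the 3 forms overlap in both libraries and give no order. The non-coding Ntrk3-203 was at 0.47 and 0.09 TPM.

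Ret, on chr6:118151745-118197718, minus strand, is the signalling kinase of the GDNF family. It was at 1.23 TPM (1.08 to 1.39, 261 counts) in replicate 1 and at 0.72 TPM (0.614 to 0.837, 170 counts) in replicate 2, a mean of 0.975 ± 0.361 (SD, n = 2). The intervals did not overlap, and replicate 2 alone was under 1 TPM. Both listed Ret transcripts hold the catalytic loop, so no truncated share arises. Ret-202, with the short end printed above, was at 1.23 TPM (0.912 to 1.31) and 0.59 TPM (0.389 to 0.710), 100% and 81.9% of Ret. Ret-201, with the long end, was at 0 TPM (upper bound 0.293) and at 0.13 TPM (0.00860 to 0.331). In the deposited estimates, the short-end form was thus above the long-end form beyond the intervals in both libraries. The counted models were not those of M21. Ret-202 had 7341 nt against 4497 nt in M21, and Ret-201 had 6064 nt against 5456 nt. How many of the counted bases belong to 1 form only is therefore not known here.

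**Figure D3:**
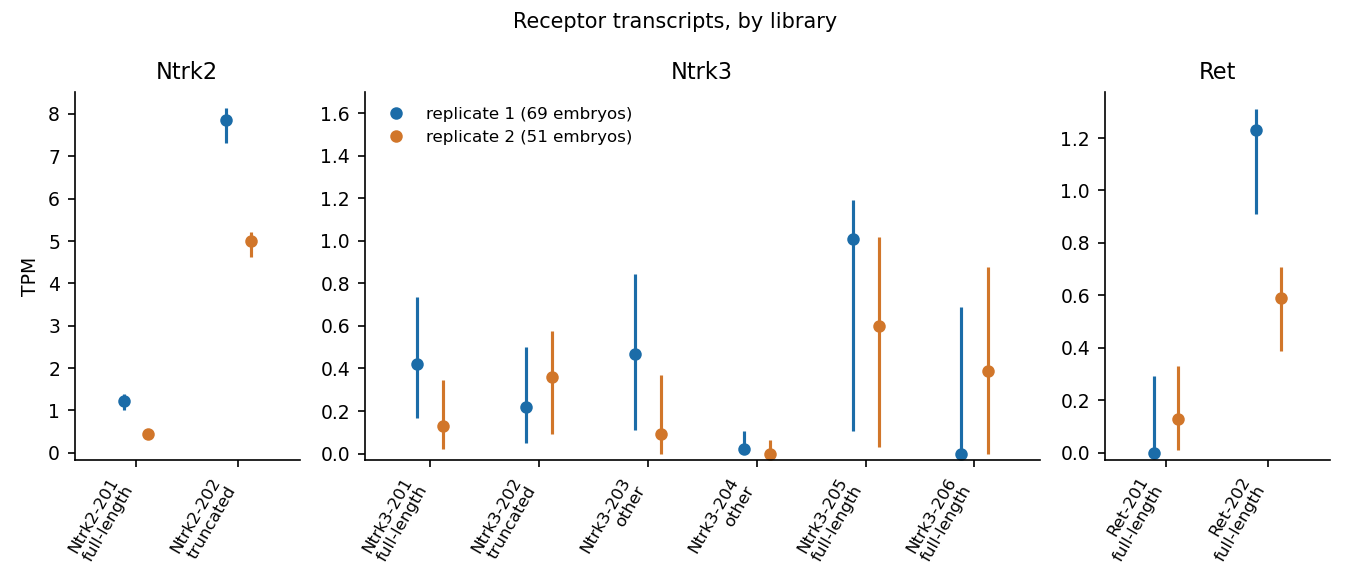
TPM of every listed transcript of Ntrk2, Ntrk3 and Ret in replicate 1 (blue) and replicate 2 (orange), with the deposited credible intervals as vertical lines and a separate linear axis for each gene. The truncated Ntrk2-202 (7.86 and 5.01 TPM) lies above the full-length Ntrk2-201 (1.21 and 0.45 TPM), while the intervals of the 3 full-length Ntrk3 forms overlap.

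Receptors and co-receptors of the same pathways lay both above and below Ret. Of 15 other receptors, co-receptors and sorting receptors 11 were detected, with a median mean TPM of 3.10. The adhesion molecule Ncam1, which can also act as a Gdnf receptor, was at 69.6 and 34.6 TPM, and Gfra1, the co-receptor of Gdnf, at 28.9 and 18.5 TPM. Gfra1 exceeded Ret by TPM ratios of 23.5 and 25.7, and Gdnf by 44.4 and 52.9. Sdc3, a proteoglycan that binds Gdnf, was at 24.1 and 18.1 TPM, and the sorting receptor Sort1, which binds pro-neurotrophins together with the Ngfr product, at 15.4 and 9.35 TPM. At the other end Gfra2 was at 1.09 and 0.70 TPM, Gfra3 at 0.56 and 0.50 TPM, and Gfral had 0 counts in both libraries. Ngfr and Ntrk2 would rank as the fourth and the seventh of these 19 genes by mean level, as the plot of ligands and receptors shows.

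**Figure D4:**
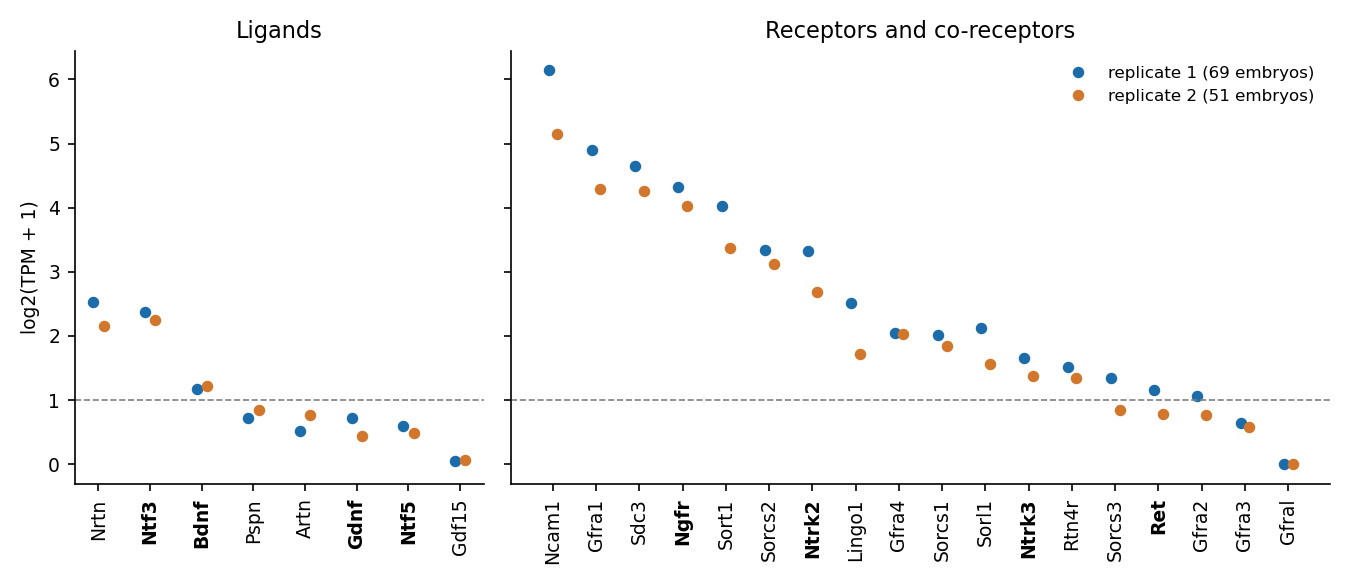
Levels as log2(TPM + 1) of ligands (left) and of receptors and co-receptors (right) in replicate 1 (blue) and replicate 2 (orange), with some listed genes not shown, ordered by mean TPM, with the 8 members in bold and the dashed line at 1 TPM. Ntf3 and Nrtn (4.76 and 3.45 TPM) are the highest ligands, and Ncam1 (69.6 and 34.6 TPM) and Gfra1 (28.9 and 18.5 TPM) the highest receptors.

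Numbers of detected genes in the rest of the pathway are read beside the 58.1% of all protein-coding genes detected. Of 15 proteases that cut the precursors or the Ngfr product 9 were detected, near that share. Among these were Adam10 (61.4 and 56.3 TPM), Plat (58.8 and 46.3 TPM) and Adam17 (33.4 and 34.0 TPM), while Mmp3 and Mmp7 had 0 counts. Adam10 and Adam17 shed receptor ectodomains, and Plat encodes tissue plasminogen activator. Of 30 adaptors and signal relays of the Trk and Ret kinases 28 were detected, among them Crk at 108 and 113 TPM and Hras at 74.1 and 71.1 TPM. The lowest were Shc4 at 1.10 and 1.11 TPM and Dok6 at 1.12 and 0.54 TPM. All 10 intracellular partners of the Ngfr product were detected, from Ripk2 at 5.10 and 4.92 TPM and Traf6 at 15.8 and 14.4 TPM up to Rhoa at 233 and 231 TPM, Maged1 at 562 and 482 TPM, Bex3 at 531 and 542 TPM and Arhgdia at 628 and 660 TPM. Many of these proteins serve other pathways too. Of 13 transcription regulators linked to these genes 9 were detected, the highest being Usf1 (135 and 117 TPM), Creb1 (42.0 and 38.6 TPM), Arnt2 (29.0 and 19.2 TPM) and Etv5 (20.6 and 17.5 TPM), and the lowest Runx3 (0.04 and 0.03 TPM) and Npas4 (0 and 0.02 TPM).

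How far the members differed between the pools was tested gene by gene with a two-sided exact binomial test on scaled counts. This compares the 2 libraries, not conditions, and covers counting error only. Genes were called at an adjusted p under 0.05 together with a ratio of at least 2-fold, and 350 of 14768 genes tested (2.37%) were called, 252 higher in replicate 1 and 98 higher in replicate 2. Of the 5 members that passed the filter of a mean of 1 TPM, 0 were called, while 2 passed the same p with no minimum ratio, as did 53.2% of all genes tested. At an unadjusted p under 0.05 the number was also 2.

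Ntrk2, with 1893 and 1288 counts, was 1.60-fold higher in replicate 1 (log2 0.68, 95% interval 0.57 to 0.78, adjusted p = 9.81e-38 by the exact test). At a minimum of 1.5-fold it is the 1 member called, where 7.72% of genes are. Of all genes tested 5.1% had a ratio at or above it. Ngfr was 1.18-fold higher in replicate 1 (log2 0.24, 0.15 to 0.34, exact adjusted p = 1.98e-06). The median absolute log2 ratio of all genes tested was 0.16.

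For 3 members no difference was detectable at this depth. Ntrk3 had a log2 ratio of 0.25 (95% interval -0.11 to 0.60, exact adjusted p = 0.244), Ntf3 of 0.10 (-0.23 to 0.43, adjusted p = 0.634) and Bdnf of -0.15 (-0.48 to 0.17, adjusted p = 0.472). As unscaled TPM ratios these were 0.44 for Ntrk3, 0.16 for Ntf3 and -0.08 for Bdnf. Bdnf was the 1 member with the lower scaled level in replicate 1. Ret, Gdnf and Ntf5 fell under the filter and were not in the main test. Their ratios were 1.67-fold for Ret (log2 0.74, 0.45 to 1.02), 1.76-fold for Gdnf (log2 0.81, 0.23 to 1.43) and 1.21-fold for Ntf5 (log2 0.28, -0.55 to 1.12). With no filter, the exact adjusted p was 1.21e-06 for Ret, 0.0156 for Gdnf and 0.681 for Ntf5, and none of them was called at 2-fold.

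Within Ntrk2 the forms differed in their ratios. The full-length Ntrk2-201, with 300 and 127 counts, was 2.56-fold higher in replicate 1 (95% interval 2.08 to 3.18), and the truncated Ntrk2-202, with 1593 and 1161 counts, 1.49-fold (1.38 to 1.61). The intervals do not overlap and cover counting error only.

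**Figure D5:**
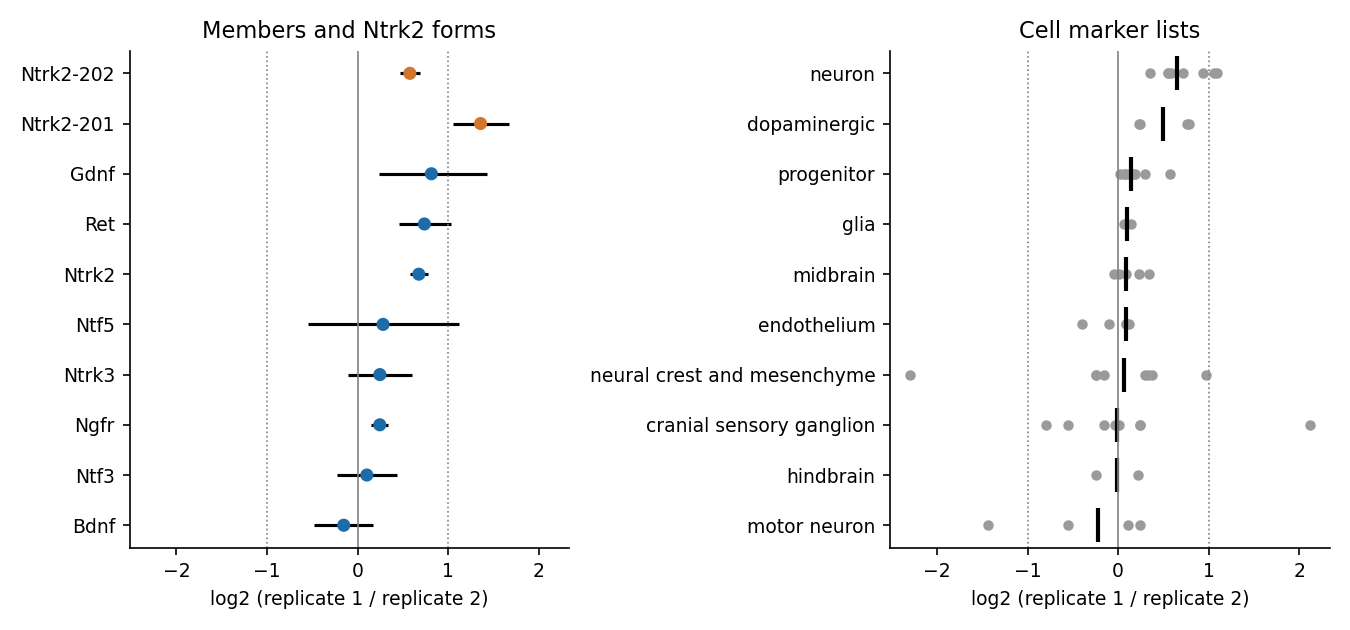
Left, log2 ratio of replicate 1 to replicate 2 for the 8 members (blue) and the Ntrk2 forms (orange), with 95% intervals for counting error. Right, the same ratio for each marker gene with a mean of at least 1 TPM (grey points) and the median of each cell marker list (black bars); dotted lines mark 2-fold. Ntrk2, Ret, Gdnf and Ngfr lie to the right of 0 with their intervals. All points of the neuron, progenitor, dopaminergic and glia lists lie to the right of 0 as well.

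All 8 neuron markers had a ratio above 1, as had all 8 progenitor markers, the 4 dopaminergic genes tested and every member but Bdnf. The neuron markers had a median log2 ratio of 0.65 and a sum of 1284 and 799 TPM. The highest of them were Tubb3 (562 and 364 TPM), Gap43 (171 and 111 TPM) and Stmn2 (175 and 101 TPM). Dcx (log2 1.09) and Mapt (log2 1.06), named after their values were seen, were the 2 called. The 4 detected dopaminergic genes had a median log2 ratio of 0.50, with Th at 11.9 and 6.68 TPM, Ddc at 13.4 and 11.6 TPM and Lmx1a at 15.8 and 12.8 TPM, while Pitx3 and Slc6a3 were under 1 TPM. Progenitor markers had a median of 0.14 and sums of 2727 and 2235 TPM, led by Vim (1047 and 958 TPM), Hes5 (698 and 585 TPM) and Fabp7 (622 and 397 TPM). The part of any of these in the ratios of the members was not tested.

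Of markers of cells outside the neuroepithelium, 1 of 8 tested genes of neural crest and mesenchyme, 1 of 8 of sensory ganglia and 0 of 5 of endothelium were called. Sox10, a gene of neural crest, was at 0.46 and 2.15 TPM and called higher in replicate 2 (log2 -2.30, exact adjusted p = 4.26e-23). Of the 8 tested genes of its list, 4 had a ratio above 1. The neural crest and mesenchyme list summed to 694 and 496 TPM with a median log2 ratio of 0.07, led by Col3a1 (416 and 317 TPM), Col1a1 (149 and 72.6 TPM) and Lum (91.8 and 69.3 TPM). Sensory ganglion markers summed to 67.0 and 65.6 TPM, led by Pou4f1 (20.9 TPM on average), Neurod1 (17.9 TPM) and Eya2 (10.1 TPM), with a median of -0.01; Avil was called higher in replicate 1 (log2 2.11). Sox10 and Avil were named after their values were seen. Motor neuron markers summed to 26.5 and 24.1 TPM, with Isl1 at 17.5 and 14.0 TPM, Isl2 at 4.86 and 4.25 TPM and Mnx1 at 0 counts in both. Endothelial genes were led by Egfl7 (58.0 and 72.9 TPM), Cldn5 (25.0 and 25.4 TPM) and Kdr (24.6 and 22.1 TPM). Of the glial markers, Mbp was at 12.1 and 10.4 TPM and Olig1 at 8.17 and 7.45 TPM, and Aqp4, Gfap and S100b were under 1 TPM in both libraries. Hindbrain genes summed to 6.94 and 8.82 TPM, with Gbx2 at 3.03 and 3.95 TPM and Hoxa2 at 0.24 and 1.67 TPM. Whether any of these cells carried the RNA of the members was not tested.

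Calls in the rest of the pathway are read beside the 2.37% of all genes tested. Of the listed genes that passed the filter, 0 of 1 ligand, 0 of 12 receptors, 0 of 9 proteases, 0 of 29 adaptors and 0 of 10 partners of the Ngfr product were called, and 1 of 10 regulators, Phox2a, a homeobox gene of midbrain motor nuclei, at 0.63 and 1.64 TPM (log2 -1.43, exact adjusted p = 5.42e-06, higher in replicate 2). Of the 12 receptors 10 had a ratio above 1, with a median log2 ratio of 0.41, beside a median of 0 over all genes tested. Ncam1 (log2 0.94) and Gfra1 (log2 0.57, exact adjusted p = 5.46e-46) were among them. The medians of the proteases, adaptors, partners of the Ngfr product and regulators were 0.05, 0.05, -0.04 and 0.04.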

How the data were processed

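Per the file headers, the gene and transcript tables of both libraries were made from transcriptome alignments on mm10 with GENCODE M4. Aligner and quantifier: not given in the sources used here. The assay is labelled total RNA-seq, but the labels link a manual of a kit that primes on poly(A) tails, so capture and strand are taken as unknown. The deposited expected counts are estimates, not whole where a read fits several transcripts. In the deposited TPM values these are divided by effective length and brought to 1 total for every library. The deposited FPKM values served as an alternative. The deposited bounds of TPM credible intervals were read as a signal in TPM units. The deposited isoform percent is a transcript's share of its gene.

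Names, positions, coding exons and sequences came from GENCODE M21 on GRCm38, matched on Ensembl identifiers (42462 of 43346). The forms' lengths in M4 and M21 differ for some transcripts (Ntrk3-201: 3300 and 19703 nt, Ret-202: 7341 and 4497 nt). A transcript was full-length when its M21 coding sequence held the catalytic loop and the metal-binding motif, and truncated when it was coding and lacked them. Rows that name no gene, 26345 spike-ins and tRNAs with 3.39% and 3.28% of the counts, stayed out of library sizes.

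TMM scaling (edgeR 4.0.16; factors 1.01 and 0.990) was applied to rounded expected counts. Genes averaging 1 TPM or more were tested by a two-sided exact binomial test, adjusted over all of them by Benjamini-Hochberg; 0.5 was added to counts in ratios. Biological spread could not be fitted from 1 library against 1, and PCR copies are not independent molecules, so p-values, intervals and the floor of 3 counts cover counting error only. Counts were also simulated for replicate 1 against replicate 2 over 14768 genes, with counting (Poisson) error only. Of these, 95.0% of 100 genes changed 3-fold, 99.0% of 100 changed 6-fold and 0 of 14568 unchanged genes were called. The simulated error is the one the test assumes, so it gives no rate of false calls from biological or technical spread in these data.

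The members and lists were chosen with earlier results of these data known. Named were all members; of each pathway list the 4 highest and 2 lowest genes by mean TPM and every called gene; of each marker list the 3 highest; the 3 genes nearest in level to the 2 highest members; receptor transcripts of at least 0.05 TPM and the top 3 transcripts of other members. Added after their values were seen were En2, Dcx, Mapt, Avil, Sox10, Gm9885, Gfra2, Pitx3, Slc6a3, Mnx1, Gfap and S100b. Drgx had no match. A few genes under the rule are left unreported but stay in the counts, medians and sums of their lists. Alternatives were other TPM minimums, posterior mean TPM, FPKM, DESeq2 1.42.0 size factors, unscaled TPM ratios, other filters, folds and added counts, other denominators, and 1 replicate alone. The software was R 4.3.3 and Python 3.11.15 with scipy 1.17.1, pandas 2.3.3 and numpy 2.4.6.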

Additional observations from a re-analysis of the deposited data

How the results depend on the processing

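At a minimum of 2 TPM 3 members were detected, against 5 at 1 TPM. Genes called between the libraries numbered 1093 with no filter, 100 at a mean of at least 5 TPM, 1140 at a 1.5-fold minimum and 91 at a 3-fold minimum, against 350, and 1 member, Ntrk2, was called at 1.5-fold. The full-length share of Ntrk3 was 69.1% with all transcripts as denominator, against 81.2%, since the denominator then holds the non-coding forms. The level of Bdnf was 1.36 TPM by posterior mean, against 1.29 by the deposited TPM. Of the rest, 54 recomputed values counted as unchanged. Ratios kept their direction and, where tested, their side of the threshold. Counts stayed within 1.5-fold, and levels and shares within the SD of the libraries. Some of these could not have changed. The full-length share of Ret is 100% by any measure, as both listed forms are full-length. Ret, Gdnf and Ntf5 lay under the filter and had no call to lose or gain. A further 22 set the level or share of 1 library beside the mean of both, which cannot move by more than their SD and so shows nothing on stability. No direction reversed. Unscaled TPM ratios shift the median gene by 0.07 (log2) and gave 0.44 for Ntrk3 (0.25 with TMM scaling), 0.16 for Ntf3 (0.10) and -0.08 for Bdnf (-0.15). For the library difference no replicate could be left out, with 1 library on each side. No paired analysis was possible because there is 1 group. Depth limits Ntf5, Gdnf and the Ntrk3 forms most: 25 to 28 counts for Ntf5, 40 to 65 for Gdnf, and 14 to 27 for Ntrk3-202.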
